A study of Rattus norvegicus with 4 samples.

Results

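The genes described are 10 members of the Wnt pathway: the ligands Wnt4 and Wnt5a, the receptors Fzd1 and Fzd2, the secreted modulators Dkk3 and Sfrp4, beta-catenin (Ctnnb1), the scaffolds Axin1 and Axin2, and the nuclear partner Lef1. They were taken by name, and every probe whose RefSeq accession belongs to one of them was read. Where a gene had more than 1, the brightest by mean gave its level, and the other is given beside it. All 10 had a probe, 12 probes in all, out of 8927 genes that could be named on the array, and 0 members lacked one. The study measured cells of the Fisher 344 rat on 4 Agilent arrays of 1 colour, with 1 array for each group. The groups were neurons derived from olfactory bulb stem cells (OB neurons), the olfactory bulb neural stem cells themselves (OB stem cells), neurons derived from hippocampal stem cells (HPC neurons) and the hippocampal neural stem cells (HPC stem cells). Each array held RNA mixed from 3 independent experiments, so it averages over them and shows no spread between cultures. The labels used here name no treatment, genotype or age of the animals, and precision is limited by having 4 arrays.

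Wnt proteins are secreted, lipid-bearing ligands that bind Frizzled receptors. In the branch that runs through beta-catenin, ligand binding stops a complex built on Axin from marking beta-catenin for breakdown, and beta-catenin then enters the nucleus, joins Lef1 or a related Tcf protein and switches on targets that include Axin2 and Lef1 themselves. Other ligands, Wnt5a among them, act largely without beta-catenin. In the adult hippocampus, Wnt signals from astrocytes are known to promote the formation of neurons.

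Levels are log2 processed signals minus the array's own 75th percentile, so a level of 0 is a signal at that percentile. A probe's level is compared across arrays only, never with another probe's. Both neuron arrays lay on 1 slide and both stem cell arrays on the other, so state and slide cannot be told apart, while OB and HPC cells of the same state shared a slide. Among probes printed 10 times, spots of a probe had a median SD of 0.0611 to 0.0932 log2 units on the 4 arrays, which is the noise of spots and not of cultures. A dim side of a comparison (not well above background) was raised to the lowest signal well above background on that array, or kept at its own where that was larger, and such differences read "at least". Differences were called from 1 log2 unit (2-fold) upwards. The only test was an additive limma fit of state and source over the 4 arrays, with 1 residual degree of freedom. Its p-values were adjusted over all 6624 genes tested, and it takes the bounded levels as values. Its error comes from the difference between the state changes of the OB and HPC cells, moderated over all genes. Its SEs and p-values therefore measure no spread between cultures. A gene dim on both stem cell arrays entered the fit through the neuron arrays alone, with raised levels for the stem cells. No p-value is given for such a gene.

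The neuron label did not match its markers in a simple way. The 11 measured neuronal markers were all well above background on both neuron arrays, where Stmn2 was dim on both stem cell arrays and Nefl in OB stem cells. Their signals summed to 6.23 and 8.52 times the 75th percentile on the OB and HPC neuron arrays, against 62.8 and 71.1 times on the OB and HPC stem cell arrays. Such sums are carried by the brightest probes: the median difference of neurons minus stem cells over these markers was -1.43 in OB cells (3 higher and 6 lower of 11) and -0.385 in HPC cells (2 higher and 5 lower). Over all genes compared, the median was 0 in OB cells, with 25.5% higher and 21.8% lower by 2-fold. In HPC cells it was -0.329, with 21.7% higher and 27.3% lower, so the HPC median of the neuronal markers lay near that of all genes. All 8 measured markers of pericytes, fibroblasts and smooth muscle were well above background on both neuron arrays and 1 of 8 on each stem cell array, with sums of 483 and 364 against 0.209 and 0.216. All 9 astrocyte markers were well above background on both neuron arrays, and 5 and 4 of 9 on the OB and HPC stem cell arrays, with sums of 126 and 133 against 31.4 and 40.3. Microglia markers summed to 6.71 and 6.53 against 0.918 and 0.93, and endothelial markers to 7.42 and 8.88 against 0.281 and 0.355. The 4 proliferation markers summed to 30.4 and 30.4 against 182 and 221, oligodendrocyte markers to 29.2 and 18.7 against 114 and 153, stem cell markers to 223 and 203 against 212 and 252, and ensheathing and Schwann cell markers to 171 and 76.8 against 109 and 164. Marker by marker, the median difference in OB and HPC cells was -1.27 and -0.948 for stem cell markers (2 higher and 4 lower of 8 in each), -0.174 and -0.287 for oligodendrocyte markers, and 4.14 and 0.863 for ensheathing and Schwann cell markers, whose sum was lower in HPC neurons. The part of these other cell types in the results below was not tested. In these bulk samples, fewer cells of a type cannot be told apart from less RNA per cell.

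Both ligands were higher on the neuron arrays. Wnt5a (NM_022631), the ligand best known for signalling without beta-catenin, lay at -1.30 in OB neurons, against -8.21 in OB stem cells, and at -1.13 in HPC neurons, against -6.58 in HPC stem cells. Its signals were 316.1 and 385.8 on the OB and HPC neuron arrays, against 2.81 and 5.28 on the OB and HPC stem cell arrays, and both stem cell signals were too dim to count as above background. The neuron arrays were therefore higher by at least 4.66 log2 units (25.2-fold) in OB cells and at least 4.34 (20.2-fold) in HPC cells with this scaling. With normexp, whose offset of 50 pulls dim signals together by construction, the differences of Wnt5a came to 2.75 and 2.13. The limma state term of 4.50 was likewise a bound, since Wnt5a entered the fit through the neuron arrays alone.

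Wnt4 (NM_053402), a ligand with roles in kidney and gonad development, was well above background on all 4 arrays. Its level was -0.36 in OB neurons, against -3.74 in OB stem cells, and -2.02 in HPC neurons, against -3.43 in HPC stem cells. The stem cell arrays were close to each other and the OB neuron array stood highest. Wnt4 was thus higher in neurons by 3.38 (10.4-fold) in OB cells and by 1.41 (2.66-fold) in HPC cells. The limma state term was 2.40 ± 0.55 (SE), with an adjusted p of 0.0229 that came to 0.0837 with quantile normalization and ranged from 0.0035 to 0.0837 over 5 alternatives. Spike-in scaling was not among these 5, here or for the other genes. The HPC difference was under 2-fold with normexp (0.53), quantile normalization (0.98) and median scaling (0.91). The OB state change exceeded the HPC one by 1.97, at percentile 97.6 of 5495 genes well above background on all arrays. This fell short of the 2 log2 units (4-fold) at which 225 of those genes (4.09%) were called, and with 1 array a group it could not be tested.

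**Figure D1:**
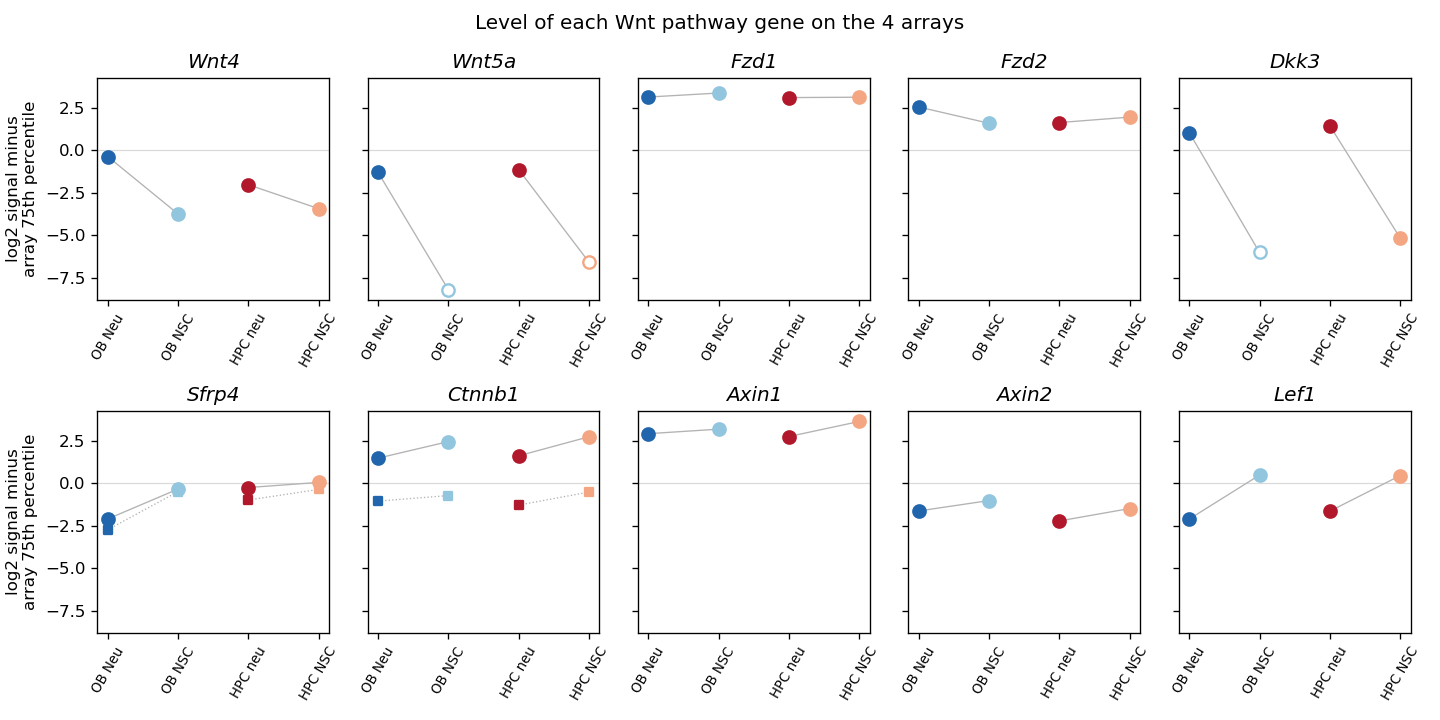
Level of each of the 10 genes on the 4 arrays, as log2 signal minus the array's 75th percentile; each point is 1 array, open points are not well above background, lines join the neuron and stem cell arrays of a source, and small squares on dotted lines are second probes of Sfrp4 and Ctnnb1. Dkk3 and Wnt5a are high on both neuron arrays and low on the stem cell arrays, where of these 4 points Dkk3 in HPC stem cells alone is well above background, Lef1 shows the opposite order, and Fzd1 is level across the 4 arrays.

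The 2 Frizzled receptors did not share this pattern. Fzd1 (NM_021266) lay at 3.15 in OB neurons, against 3.38 in OB stem cells, and at 3.11 in HPC neurons, against 3.14 in HPC stem cells. Its 4 levels spanned 0.269 log2 units, and its state differences of -0.24 in OB cells and -0.022 in HPC cells turned positive with quantile normalization (0.014 and 0.39), as the HPC value also did with spike-in scaling (0.36). Fzd2 (NM_172035) lay at 2.56 in OB neurons, against 1.60 in OB stem cells, and at 1.64 in HPC neurons, against 1.96 in HPC stem cells. Its OB neuron array was the highest of the 4 and the other 3 lay within 0.37 of each other. The differences were 0.96 in OB cells and -0.32 in HPC cells, neither called. The HPC value turned to 0.065 with spike-in scaling, and the OB value passed 2-fold with quantile normalization (1.22). In the limma fit the adjusted p was 0.789 for Fzd1 and 0.597 for Fzd2.

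The secreted modulators differed from each other, with Dkk3 higher on both neuron arrays and Sfrp4 lower by over 2-fold in OB cells. Dkk3 (NM_138519), a member of the Dickkopf family of secreted glycoproteins whose action on Wnt signalling varies with context, lay at 1.05 in OB neurons, against -6.01 in OB stem cells, and at 1.46 in HPC neurons, against -5.15 in HPC stem cells. The signals were 1608 and 2320 on the OB and HPC neuron arrays, against 12.9 and 14.2 on the OB and HPC stem cell arrays. The OB stem cell signal was not well above background and the HPC one was 1.24 times the lowest signal that was. Dkk3 was higher in neurons by at least 7.002 (128-fold) in OB cells and by 6.61 (97.8-fold) in HPC cells. These lay at percentiles 97.7 and 97.9 of all genes compared, and the limma state term was 6.81 ± 0.35 (SE) with an adjusted p of 0.000284. The summed markers of pericytes, fibroblasts and smooth muscle were also higher on the neuron arrays, and their part in the Dkk3 differences was not tested. With normexp the Dkk3 differences came to 4.59 and 4.23.

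Sfrp4 (NM_053544), a secreted Frizzled-related protein that can bind Wnt ligands, lay at -2.09 in OB neurons, against -0.33 in OB stem cells, and at -0.24 in HPC neurons, against 0.059 in HPC stem cells. Only the OB neuron array stood apart, below the other 3. The difference was -1.76 (3.39-fold lower in neurons) in OB cells and -0.30 in HPC cells, where it turned to 0.085 with spike-in scaling. The second probe of Sfrp4 gave -2.25 in OB cells and -0.62 in HPC cells. The OB change minus the HPC change was -1.46, at percentile 4.06, where that of Wnt4 was 1.97. The limma state term, -1.03 ± 0.47 (SE), had an adjusted p of 0.136 (0.0414 with median scaling and 0.0414 to 0.167 over 5 alternatives).

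Beta-catenin and its scaffolds had negative differences in both sources, and none of them passed the limma test. Ctnnb1 (NM_053357), which encodes beta-catenin, lay at 1.49 in OB neurons, against 2.47 in OB stem cells, and at 1.63 in HPC neurons, against 2.75 in HPC stem cells. The neuron arrays were below the stem cell arrays in both sources, with differences of -0.98 in OB cells and -1.12 in HPC cells, values that lie on either side of 2-fold. The authors' table and the 2 filters leave these values unchanged by construction. Of the other alternatives, only median scaling kept the HPC value past 2-fold (-1.62). It was under 2-fold with normexp (-0.953), quantile normalization (-0.779), spike-in scaling (-0.735) and the mean over probes (-0.943). The OB value passed 2-fold with normexp (-1.01), median scaling (-1.48) and spike-in scaling (-1.45). It stayed under it with quantile normalization (-0.804) and the mean over probes (-0.651). The other probe of Ctnnb1, measured on 9 spots with SDs of 0.0696 to 0.0918, gave smaller differences of -0.33 and -0.77. The limma adjusted p was 0.0637, and it was 0.0165 with median scaling (0.0165 to 0.125 over 5 alternatives).

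Axin1 (NM_024405), the scaffold of the complex that degrades beta-catenin, lay at 2.93 in OB neurons, against 3.20 in OB stem cells, and at 2.76 in HPC neurons, against 3.65 in HPC stem cells. The HPC stem cell array was the highest of the 4. Its differences of -0.27 and -0.89 were not called, and the limma adjusted p was 0.266. The HPC value came to -1.38 with median scaling, past the 2-fold threshold. With quantile normalization the differences shrank to -0.021 in OB cells and -0.45 in HPC cells.

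Axin2 and Lef1 are at once parts of the pathway and well-known targets of it. Lef1 (NM_130429), the DNA-binding partner of beta-catenin, lay at -2.10 in OB neurons, against 0.49 in OB stem cells, and at -1.63 in HPC neurons, against 0.46 in HPC stem cells. The stem cell arrays differed by 0.033, and both neuron arrays were far below them. Lef1 was lower in neurons, with differences of -2.59 (6.03-fold) in OB cells and -2.09 (4.27-fold) in HPC cells, at percentiles 4.03 and 5.75 of all genes compared. The limma state term was -2.34 ± 0.36 (SE), with an adjusted p of 0.00683, and the difference stayed at -1.71 or below under each alternative run.

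Axin2 (NM_024355), an inducible scaffold that feeds back on the pathway, lay at -1.62 in OB neurons, against -1.01 in OB stem cells, and at -2.21 in HPC neurons, against -1.48 in HPC stem cells. Neurons were below stem cells in each source, with differences of -0.61 in OB cells and -0.73 in HPC cells. Neither difference was called, though the OB value passed 2-fold with median (-1.12) and spike-in scaling (-1.09). The HPC value passed it with quantile normalization (-1.07) and median scaling (-1.23). The smallest values were -0.42 in OB cells with normexp and -0.34 in HPC cells with spike-in scaling. Before scaling, the HPC signals were 182.8 in neurons and 181.5 in stem cells, on arrays with 75th percentiles of 845 and 506. The limma adjusted p was 0.179 (0.0367 with median scaling and 0.0367 to 0.389 over 5 alternatives). The percentiles of these differences were 31.8 and 36.5, against 4.03 and 5.75 for Lef1, so these 2 target genes lay at different ranks among all genes.

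The start regions of Axin2 and Lef1 are shown because both genes are targets of the Lef1 and Tcf factors and their levels on the neuron arrays are compared above. Each sequence, from RefSeq on build GRCr8, runs from 250 bases before to 50 after the listed start, on the plus strand, at chr10:94398535-94398834 for Axin2 and chr2:222340463-222340762 for Lef1. Capitals mark any of 4 forms of the Tcf and Lef core of 7 letters, on either strand. The first form searched was CTTTGAA, the next was CTTTGAT, another was CTTTGTT and the last was CTTTGTA. The forms exclude each other at a position and were chosen after the levels had been seen.
Axin2: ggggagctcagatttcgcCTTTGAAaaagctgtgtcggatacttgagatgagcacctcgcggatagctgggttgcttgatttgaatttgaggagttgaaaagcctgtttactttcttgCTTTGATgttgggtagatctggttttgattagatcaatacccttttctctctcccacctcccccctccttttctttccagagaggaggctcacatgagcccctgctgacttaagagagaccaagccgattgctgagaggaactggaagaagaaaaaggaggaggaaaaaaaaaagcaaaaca
Lef1: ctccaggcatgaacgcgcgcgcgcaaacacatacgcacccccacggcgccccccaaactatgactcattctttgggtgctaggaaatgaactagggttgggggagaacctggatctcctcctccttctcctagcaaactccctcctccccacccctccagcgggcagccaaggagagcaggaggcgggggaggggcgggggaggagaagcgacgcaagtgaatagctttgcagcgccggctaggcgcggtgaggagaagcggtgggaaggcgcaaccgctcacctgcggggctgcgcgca
Axin2 held 2 matches, at bases 19 to 25 and 119 to 125 of the window, and Lef1 held 0. Of 33469 start regions of 300 bases, 17.1% held at least 1 match and 2.12% held 2 or more. Of the 6 members with a start region in the table (Wnt4, Wnt5a, Fzd1, Ctnnb1, Axin2 and Lef1), 1 held a match, and of 107 such regions of Wnt pathway genes 13 did. A match is a string of letters and was not tested as a binding site.

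**Figure D2:**
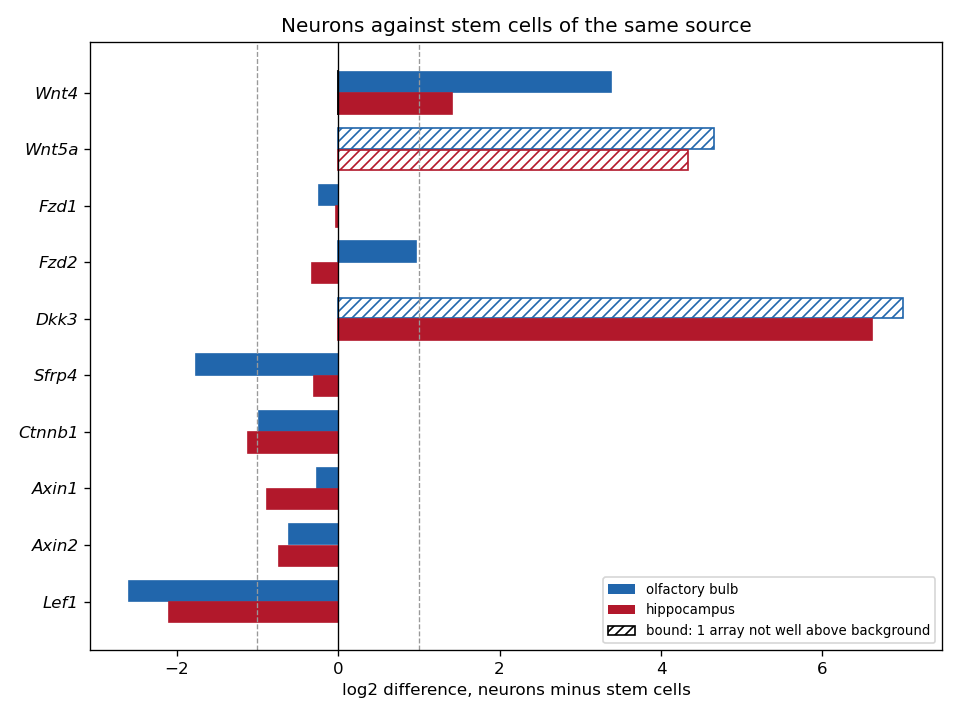
Log2 difference of neurons minus stem cells for the 10 genes, with the olfactory bulb bar above the hippocampus bar, hatched bars for bounds, and dashed lines at 2-fold. Dkk3 (at least 7.002 and 6.61), Wnt5a (at least 4.66 and 4.34) and Wnt4 (3.38 and 1.41) lie to the right in both sources and Lef1 (-2.59 and -2.09) to the left, while Sfrp4 passes the line in OB cells (-1.76) and lies inside it in HPC cells (-0.30).

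Counted together, OB neurons exceeded OB stem cells by the 2-fold threshold in 3 of the 10 genes and lay below them in 2, where 25.5% of all 7022 genes compared were higher and 21.8% lower (47.3% in either direction). In HPC cells 3 were higher and 2 lower, against 21.7% and 27.3% of 6659 genes (49.0% in either direction). In both sources at once, 3 were higher and 1 lower, against 18.2% and 18.0% of 6568 genes. These counts are near the background. The 3 higher genes were Dkk3, Wnt5a and Wnt4 in both sources, Lef1 was lower in both, and the remaining lower gene was Sfrp4 in OB cells and Ctnnb1 in HPC cells. The median of the 10 was -0.25 in OB cells and -0.31 in HPC cells, against 0 and -0.33 for all genes. The limma fit called 3 members higher (Dkk3, Wnt5a and Wnt4) and 1 lower (Lef1), where it called 18.6% of all genes higher and 18.2% lower (36.8% in either direction). Of these members, Wnt5a entered the fit through the neuron arrays alone, so its call adds no support.

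**Figure D3:**
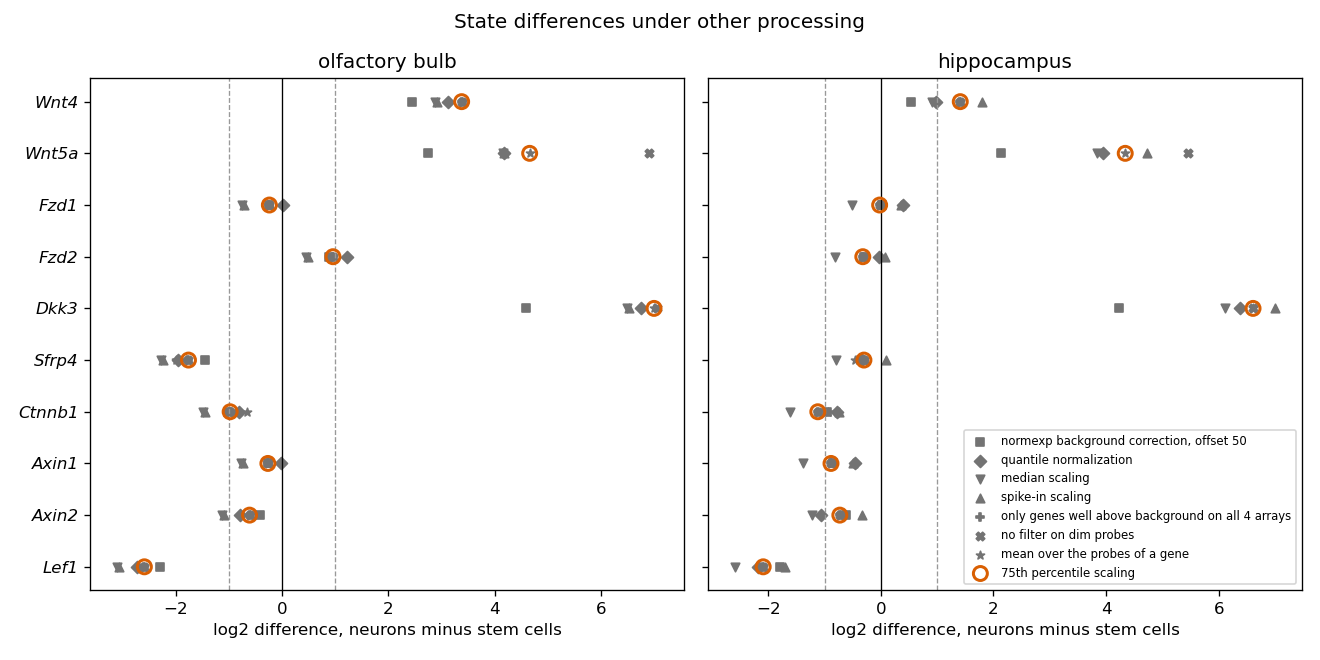
Log2 difference of neurons minus stem cells for the 10 genes under each processing alternative (grey symbols) and with 75th percentile scaling (open circles), with olfactory bulb cells in the left panel, hippocampal cells in the right one and dashed lines at 2-fold. Normexp gives the smallest values for Dkk3 (4.59 and 4.23), and every symbol of Dkk3, Wnt5a and Lef1 lies beyond the 2-fold line in both panels.

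The wider pathway was read from a list of 142 genes, of which 53 had a named probe, and 43 of these were not among the 10. In OB cells 10 of 42 such genes compared were higher and 13 lower in neurons, and in HPC cells 7 of 40 were higher and 11 lower. The limma fit called 6 of 40 higher and 8 lower. Sostdc1, Ccn4 and Ccn5, among the higher ones, entered it through the neuron arrays alone. Limma calls of genes outside the 10 were not read under the processing alternatives. Over all genes the shares were 25.5% higher and 21.8% lower in OB cells, 21.7% and 27.3% in HPC cells and 18.6% and 18.2% in the limma fit. The medians of these pathway genes were -0.25 in OB cells and -0.40 in HPC cells, beside 0 and -0.33 over all genes.

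For ligand supply, Wls, the carrier that brings Wnt proteins to the cell surface, was higher in neurons by 2.20 in OB cells and by 2.32 in HPC cells (limma adjusted p 0.00677). Wnt7b, a ligand of the beta-catenin branch, differed by -0.69 in OB cells and by at least -1.11 (a bound) in HPC cells, with a limma adjusted p of 0.1. The other 17 ligand and secretion genes of the list, Wnt3 and Porcn among them, had no named probe here. Of 6 receptors tested in the limma fit, 1 was called, where 36.8% of all genes were. Fzd9 was lower, with differences of -3.77 in OB cells and -1.81 in HPC cells (adjusted p 0.0143). Its levels were -2.81 in OB neurons, against 0.96 in OB stem cells, and -0.26 in HPC neurons, against 1.56 in HPC stem cells, so both neuron arrays were below both stem cell arrays. Ryk, a Wnt receptor with an inactive kinase domain, differed by -1.13 and -0.97 in OB and HPC cells (limma adjusted p 0.0631). Fzd5 was well above background on the neuron arrays only, at least 1.30 and 0.58 above the stem cell arrays, and Fzd3 differed by 0.23 and 0.0088. Lgr4, an R-spondin receptor, differed by 1.04 and 0.60.

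Among inhibitors, Sostdc1, a secreted antagonist of BMP and Wnt signals, had the largest difference of the pathway genes measured. It lay at 2.40 in OB neurons, against -8.13 in OB stem cells, and at 1.95 in HPC neurons, against -5.74 in HPC stem cells, and both stem cell signals were too dim to count as above background. It was higher by at least 8.35 and 7.42, and it entered the limma fit through the neuron arrays alone. Apcdd1, a membrane inhibitor, differed by 1.81 in OB cells and 0.45 in HPC cells, and Kremen1, a Dickkopf receptor, by 0.038 and -1.005; neither passed the limma test (adjusted p 0.102 and 0.389). Sost was not well above background on any array. Of the 14 cytoplasmic genes tested, limma called 1 higher and 1 lower, beside 18.6% and 18.2% of all genes. Dact1, which binds Dishevelled, was higher by 4.01 in OB cells and differed by 0.95 in HPC cells (limma adjusted p 0.0489), and the kinase gene Csnk1e was lower (-1.09 and -1.42, 0.0411). Both calls lay close to the threshold of 0.05. Senp2 (-1.05 and -0.95), Gsk3a (-0.57 and -1.18), Csnk1d (-0.60 and -0.68) and Csnk1a1 (0.78 and 0.88) did not pass.

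Of 17 nuclear factors listed, 5 had a named probe, and Tcf7, Tcf7l1 and Tcf7l2 were not among them. Of those with a probe, Lef1 alone passed the limma test, where 36.8% of all genes did. The Groucho-family genes Tle5 (-0.87 and -1.13), Tle4 (-1.12 and -0.54), Tle2 (-1.30 and -0.49) and Tle3 (-0.24 and -0.71) had negative differences in OB and HPC cells, with limma adjusted p from 0.0736 to 0.337. The list of 25 beta-catenin targets includes Axin2 and Lef1. Of these 25, 15 had a named probe, and Nkd1, Sp5, Lgr5 and Notum were among those without. The measured ones showed no single direction: 5 of 15 were higher and 5 lower in OB neurons, and 4 of 14 higher and 4 lower in HPC neurons. Limma called 3 of 14 higher and 4 lower. Over all genes, 47.3% were called in OB cells, 49.0% in HPC cells and 36.8% in the limma fit. The lower ones were Lef1, the growth regulator Myc (-3.845 in OB and -2.545 in HPC cells, adjusted p 0.00501), Birc5 (-3.31 and -3.32, 0.00199) and Id2, an inhibitor of bHLH factors (-2.34 and -1.015, 0.0362). Birc5 acts in mitosis, and the summed proliferation markers were lower on the neuron arrays as given above, a link that was not tested. Ccn4, a matricellular protein gene also called Wisp1, was higher by at least 6.70 and 6.66, Ascl2 by 1.99 and 2.11 (limma adjusted p 0.00904) and Ccn5 by at least 1.26 and 2.76. Dim on both stem cell arrays, Ccn4 and Ccn5 entered the limma fit through the neuron arrays alone. Ccn4 and Ccn5 encode proteins of the extracellular matrix. The mixed markers of pericytes, fibroblasts and smooth muscle were higher on the same arrays, and their part in these differences was not tested.

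In the branch without beta-catenin, 3 of 4 genes tested were lower in the limma fit, where 18.2% of all genes were. They were Camk2b, a calcium-dependent kinase of neurons (-2.885 and -3.465 in OB and HPC cells, adjusted p 0.00275), the small GTPase gene Rac1 (-1.24 and -1.73, 0.0273) and Celsr3, a planar polarity cadherin (-1.49 and -0.97, 0.0474). The count of 3 includes Celsr3, which lay close to the threshold of 0.05. Rhoa differed by -0.21 and -0.66. Of the 18 genes listed for this branch, the others, Vangl2, Prickle1 and Nfatc1 among them, had no named probe here. Wnt5a, a ligand that acts largely without beta-catenin, was higher on the neuron arrays, and a link to these genes was not tested.

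**Figure D4:**
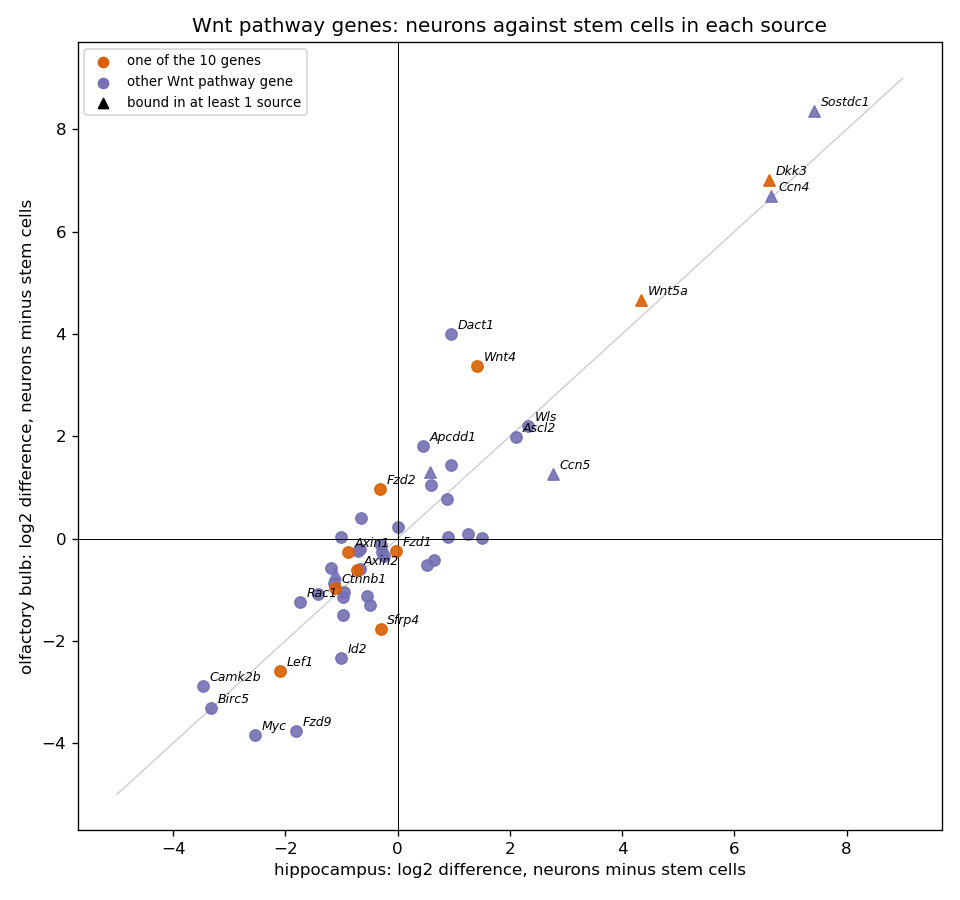
Each Wnt pathway gene compared in both sources, by its log2 difference of neurons minus stem cells in the hippocampus (horizontal) and the olfactory bulb (vertical), with the 10 genes in orange, other genes in purple, triangles for bounds and a grey line of equal values. Sostdc1, Ccn4, Dkk3 and Wnt5a lie at the upper right and Camk2b, Birc5, Myc and Fzd9 at the lower left, and Dact1 and Wnt4 lie above the line.

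Between sources, the 10 genes differed less. In stem cells, 0 of 9 members compared differed by 2-fold or more between OB and HPC cells, where 10.6% of 6029 genes did (4.41% higher and 6.20% lower). Their differences ran from a bound of -0.80 (Dkk3, dim in OB stem cells) to 0.47 (Axin2), and Wnt5a gave no value. With spike-in scaling, which gave all genes here a median of 0.43, against -0.40 with 75th percentile scaling, the differences of Wnt4, Fzd2, Sfrp4, Ctnnb1 and Axin1 turned positive and Axin2 (1.30) and Fzd1 (1.07) passed 2-fold.

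In neurons, 2 of 10 members differed by 2-fold or more between the sources, against 15.7% of 7000 genes (7.31% higher and 8.34% lower). Wnt4 was higher in OB than in HPC neurons by 1.66 (3.16-fold), at percentile 96.6 of the genes compared, and Sfrp4 was lower, with a difference of -1.85 (3.61-fold), at percentile 3.36. The second Sfrp4 probe gave -1.75, and the alternatives ran from 1.42 to 1.79 for Wnt4 and from -2.0 to -1.53 for Sfrp4. Fzd2 differed by 0.91 (1.02 with quantile normalization), Axin2 by 0.59, Lef1 by -0.47 and Dkk3 by -0.41. Wnt5a (-0.17), Ctnnb1 (-0.14), Axin1 (0.17) and Fzd1 (0.032) lay closest to 0. Among the other pathway genes, Dact1 was higher in OB neurons by 2.555, while Fzd9 (-2.55), the decoy receptor gene Bambi (-1.89) and Ccn5 (-1.99) were lower. Of the beta-catenin target list, 0 of 14 were higher and 6 lower in OB than in HPC neurons, the others being Myc (-1.615), Cd44 (-1.28), Id2 (-1.13) and Ccnd1 (-1.045), beside the 7.31% and 8.34% over all genes. In stem cells, 3 of 46 pathway genes compared were higher in OB cells, Apc (1.92), Tcf4 (1.73) and Csnk1g1 (1.005), and Cd44 was lower (-1.77). Tcf4 was listed as a target and not as a nuclear factor. Over all genes 4.41% were higher and 6.20% lower, and with spike-in scaling 11 of the pathway genes were higher and 0 lower. The ensheathing and Schwann cell markers were also higher in OB neurons, with 5 of 7 at 2-fold or more and a median of 1.28, and their part in these differences was not tested.

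**Figure D5:**
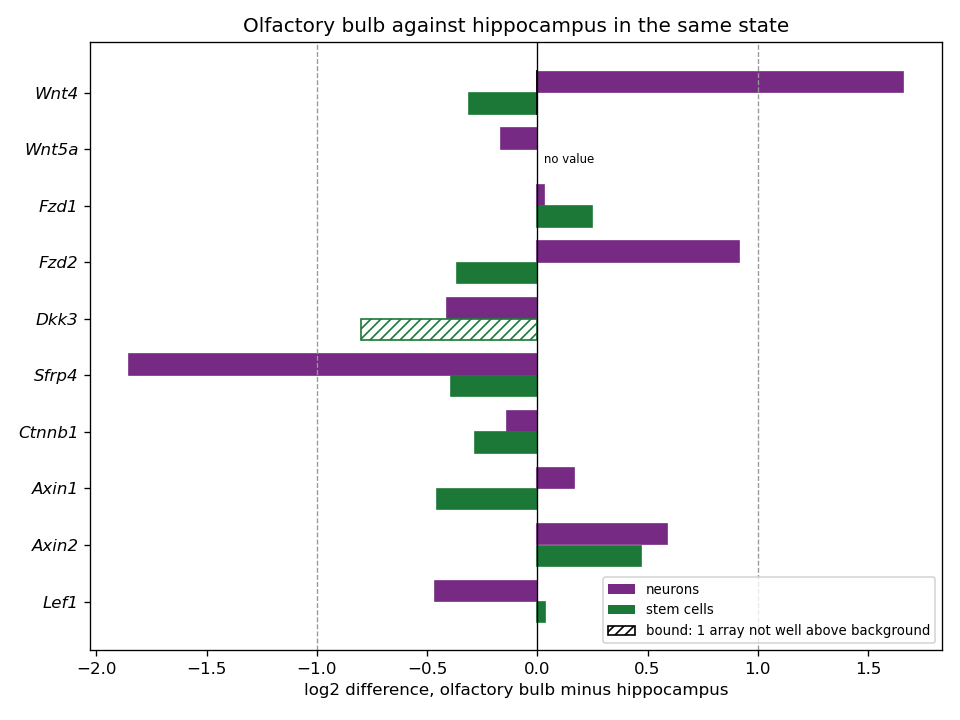
Log2 difference of olfactory bulb minus hippocampus for the 10 genes, with neurons above stem cells, a hatched bar for a bound and dashed lines at 2-fold. Wnt4 (1.66) and Sfrp4 (-1.85) in neurons pass the lines, and all stem cell bars lie inside them.

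Of the 8 members well above background on all arrays, Wnt4 varied most, with an SD of 1.55 over the 4 arrays, ahead of Lef1 (1.37) and Sfrp4 (0.976), while Fzd1 varied least (0.126). The genes closest to Wnt4 in pattern, by the root mean square difference of levels centred on each gene's mean over the 4 arrays, were Naprt (0.0492), Arsb (0.0513) and Fbxo2 (0.0938). They were the closest of 5494 genes searched, and with 4 arrays such closeness is a description only.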

How the data were processed

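Intensity values were deposited as 1 scanner file per array. Per the submitters' processing notes the authors used Agilent Feature Extraction 10.5.1.1, and per the file headers the arrays were 1-colour, of a design built on rn4, with background subtraction and spatial detrending. The authors' deposited table for the series held the same intensity values (largest difference 0, column medians 32.7 to 76.8). Flags for background and outliers were used as deposited.

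Here log2 of the deposited processed intensity was taken, less the 75th percentile of non-control spots on the same array. Of 41012 probes, 254 with an outlier spot were left out (single spots for a probe printed 10 times). Accessions without versions were matched to a RefSeq table of GRCr8, used for names, which gave 10783 of 40758 probes 1 gene symbol, 0 several and 29975 none. The brightest probe by mean stood for a gene. No spot was saturated. Bounds that would turn a direction entered as 0 (119 and 21 genes in the OB and HPC state comparisons). The limma fit (3.58.1, R 4.3.3) took genes well above background on at least 2 arrays, with Benjamini-Hochberg adjustment at 0.05, and was tested on simulated data.

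The members, gene lists, tests and alternatives were chosen with earlier results of these data known. Genes outside the 10 were named by a rule: up to 6 per list by the smaller of both state differences, and up to 2 by source difference; Sost, Wnt3 and Porcn, named for lack of a value, and Cd44, Ccnd1, Tcf4 and Csnk1g1, chosen after their values were seen, fall outside it. The alternatives were normexp (median spot signals, offset 50), quantile normalization, median and spike-in scaling, 2 filters, the mean over probes and the authors' table.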

Additional observations from a re-analysis of the deposited data

How the results depend on the processing

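No called member difference turned its direction under the 8 alternatives. Of 305 alternative member values, 286 kept their side of 2-fold, 7 lost a call (Wnt4 and Ctnnb1 in HPC cells) and 12 gained one. Much of this agreement was fixed in advance, so the count of 286 is no measure of robustness. The authors' table held the same values, and the 2 filters leave measured differences unchanged. The mean over probes changes only Sfrp4 and Ctnnb1 among the members. Dkk3 and Wnt5a have no value where a gene had to be above background on all 4 arrays. Scaling moved the median of all genes, which was 0 in OB and -0.33 in HPC cells for neurons minus stem cells, to -0.45 and -0.83 with median scaling, to -0.42 and 0.054 with spike-in scaling and, in HPC cells, to -0.19 with quantile normalization. Higher genes made up 54.0% (OB) and 44.3% (HPC) of those called, against 35.5% and 27.5% with median scaling, 36.3% and 63.5% with spike-in scaling and 42.0% and 31.8% with genes above background on all arrays. Between OB and HPC stem cells the share was 41.6%, against 94.0% with spike-in scaling.

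Counts that moved by over 1.5 times follow; beyond the fewer or more genes that the filters admit, the cause was not tested. For neurons minus stem cells, lower genes numbered 1528 in OB and 1818 in HPC cells, against 2465 (OB) and 2978 (HPC) under median scaling and 2405 (OB) and 1068 (HPC) under spike-in scaling. Higher genes numbered 1794 and 1448, against 1006 and 783 with genes above background on all arrays. The limma fit called 1203 lower genes, against 2284 with median scaling. OB minus HPC stem cells gave 266 higher and 374 lower, against 138 and 203 with normexp, 1121 and 71 with spike-in scaling and 671 lower without a filter. OB minus HPC neurons gave 512 higher and 584 lower, against 330 and 354 with normexp, 242 and 321 with genes above background on all arrays and 779 higher without a filter. Genes whose state changes differed by 4-fold numbered 225, against 128 with normexp, 380 with spike-in scaling and 778 without a filter. In the Wnt pathway list, lower genes in HPC neurons numbered 13, against 23 with median scaling and 7 with spike-in scaling. Higher ones numbered 13 in OB and 10 in HPC neurons, against 7 and 5 with genes above background on all arrays. The list's OB median of -0.25 came to -0.76 with median scaling and -0.72 with spike-in scaling, and its HPC median of -0.31 to -0.81 and 0.075. Between stem cells the list had 3 higher and 1 lower with a median of -0.31, against 11, 0 and 0.51 with spike-in scaling and 4 lower without a filter, and between neurons 2 higher, against 5 with quantile normalization.

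With 1 array a group no replicate block can be fitted, and the limma fit of state already holds source as a term. Wnt5a on both stem cell arrays and Dkk3 in OB stem cells lay below the lowest signal well above background, so their differences are bounds.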
